A study of Homo sapiens with 8 samples.

Results

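The 10 genes described here span cytokine signalling from the receptor at the cell surface to its feedback brakes. They are the prolactin receptor PRLR, the erythropoietin receptor EPOR, the growth hormone receptor GHR, the interleukin-6 receptor chain IL6R, the kinases JAK1 and JAK2, the transcription factor STAT3, and the feedback genes SOCS2, SOCS3 and CISH. They were chosen by symbol from the 15767 rows of a count table, and the choice was made with their values in the comparison of Rk2 with DMSO already known. Their fold changes and adjusted p-values therefore describe where each gene lay among all genes tested and are not independent evidence for it. All 10 were among the 12910 genes that passed the count filter, at least 10 counts in at least 4 libraries.

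RNA-seq was performed on 8 libraries of HuH7 cells, a line derived from a human hepatoma. The line was labelled wildtype, and every culture was deprived of glucose at 1% oxygen for 6 h and then returned to normoxia for 6 h, a cell model of ischaemia and reperfusion called OGD/R. During reoxygenation the medium held either the solvent DMSO (I/R+DMSO, n = 4) or 20 µM ginsenoside Rk2, a saponin of processed ginseng, in DMSO (I/R+Rk2, n = 4). The comparison asks which genes differed with Rk2 after OGD/R in this single cell line. No label says whether the libraries of a group came from separate cultures, so the tests measure the spread between these libraries, which may be technical.

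Receptors of this class have no enzyme of their own. When a cytokine or hormone binds, the JAK kinases held on the receptor tails phosphorylate the receptor and then STAT proteins, which move to the nucleus and switch on target genes. The genes of the CIS/SOCS family are among those targets, and their proteins bind the receptor or the kinase and damp the signal. In liver cells growth hormone acts through JAK2 and STAT5, and interleukin-6 acts through IL6R, gp130, JAK1 and STAT3 to raise acute-phase proteins.

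STAT3 and STAT5 dimers bind the palindrome TTCNNNGAA, so the sequences around the members' transcription starts are shown for the genes with a match and for the receptors that rose. RefSeq windows on GRCh38.p14, each of 300 bases, ran from 250 bases before to 50 bases after the start and were read 5′ to 3′ on the gene's own strand. Capitals mark TTCNNNGAA, which reads the same on both strands. The 9 members with an entry had 22 windows, and SOCS2 had no entry. CISH, whose product CIS inhibits signalling through STAT5, had 4 matches in its single window, beginning 241, 230, 129 and 112 bases upstream of the start. For GHR 1 of 7 windows held 1 match, and no match was found in the windows of the other 7 members. Of all 35116 windows, 7.66% held at least 1 match, and 7 windows, or 0.0199%, held at least 4. The windows of CISH (chr3:50611725-50612024, minus strand), GHR (chr5:42549830-42550129, plus strand), EPOR (chr19:11384265-11384564, minus strand) and PRLR (chr5:35230438-35230737, minus strand, the more upstream of its 2) are given in this order.
CISH: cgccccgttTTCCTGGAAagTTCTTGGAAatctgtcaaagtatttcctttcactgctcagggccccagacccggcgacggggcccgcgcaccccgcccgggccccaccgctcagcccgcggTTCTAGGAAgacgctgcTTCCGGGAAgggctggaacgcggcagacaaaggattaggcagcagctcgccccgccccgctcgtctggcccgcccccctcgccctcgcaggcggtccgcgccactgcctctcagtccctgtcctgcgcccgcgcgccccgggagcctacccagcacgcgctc
GHR: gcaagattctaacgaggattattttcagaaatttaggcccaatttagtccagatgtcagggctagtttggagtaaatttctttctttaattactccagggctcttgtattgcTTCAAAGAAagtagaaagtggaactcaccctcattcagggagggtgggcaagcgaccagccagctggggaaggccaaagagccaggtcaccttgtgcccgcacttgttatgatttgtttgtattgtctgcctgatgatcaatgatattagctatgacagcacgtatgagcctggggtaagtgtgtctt
EPOR: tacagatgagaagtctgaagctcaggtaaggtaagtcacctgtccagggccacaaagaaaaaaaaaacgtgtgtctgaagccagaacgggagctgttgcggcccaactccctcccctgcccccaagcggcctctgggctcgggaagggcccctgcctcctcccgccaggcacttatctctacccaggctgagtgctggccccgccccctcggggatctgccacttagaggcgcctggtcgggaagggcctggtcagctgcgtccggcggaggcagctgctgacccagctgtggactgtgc
PRLR: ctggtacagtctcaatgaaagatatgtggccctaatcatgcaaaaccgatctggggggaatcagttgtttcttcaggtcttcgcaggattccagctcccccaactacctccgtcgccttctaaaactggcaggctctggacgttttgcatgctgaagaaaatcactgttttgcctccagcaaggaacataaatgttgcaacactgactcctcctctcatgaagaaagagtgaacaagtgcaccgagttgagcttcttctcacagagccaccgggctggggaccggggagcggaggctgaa
Neither of the 2 windows of SOCS3 covered the start of the gene in the GENCODE v29 annotation, so the region just upstream of that start was not searched. A match is a run of letters and was not tested as a binding site.

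PRLR and EPOR rose and SOCS3 fell in I/R+Rk2, each by about the same factor, and the groups did not overlap in these 3 genes. The other 7 members, JAK2 and IL6R included, did not pass the test. In numbers, 2 of the 10 members were higher and 1 was lower at an adjusted p below 0.05 (edgeR's quasi-likelihood test across all genes, Benjamini-Hochberg adjustment). Of all genes tested, 11% were higher and 7.24% were lower by the same rule. The lowest I/R+Rk2 library exceeded the highest I/R+DMSO library in 2 members, against 15.4% of all genes, and the reverse held in 1 member, against 12.9%. The members' median log2 fold change was 0.12, beside -0.00 for all genes tested. Levels are given as normalized CPM, in which counts are scaled to the library total and the totals to each other, and a positive log2 fold change means a higher level with Rk2. In bulk RNA a change in RNA per cell and a change in the share of cells that make it cannot be told apart.

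**Figure D1:**
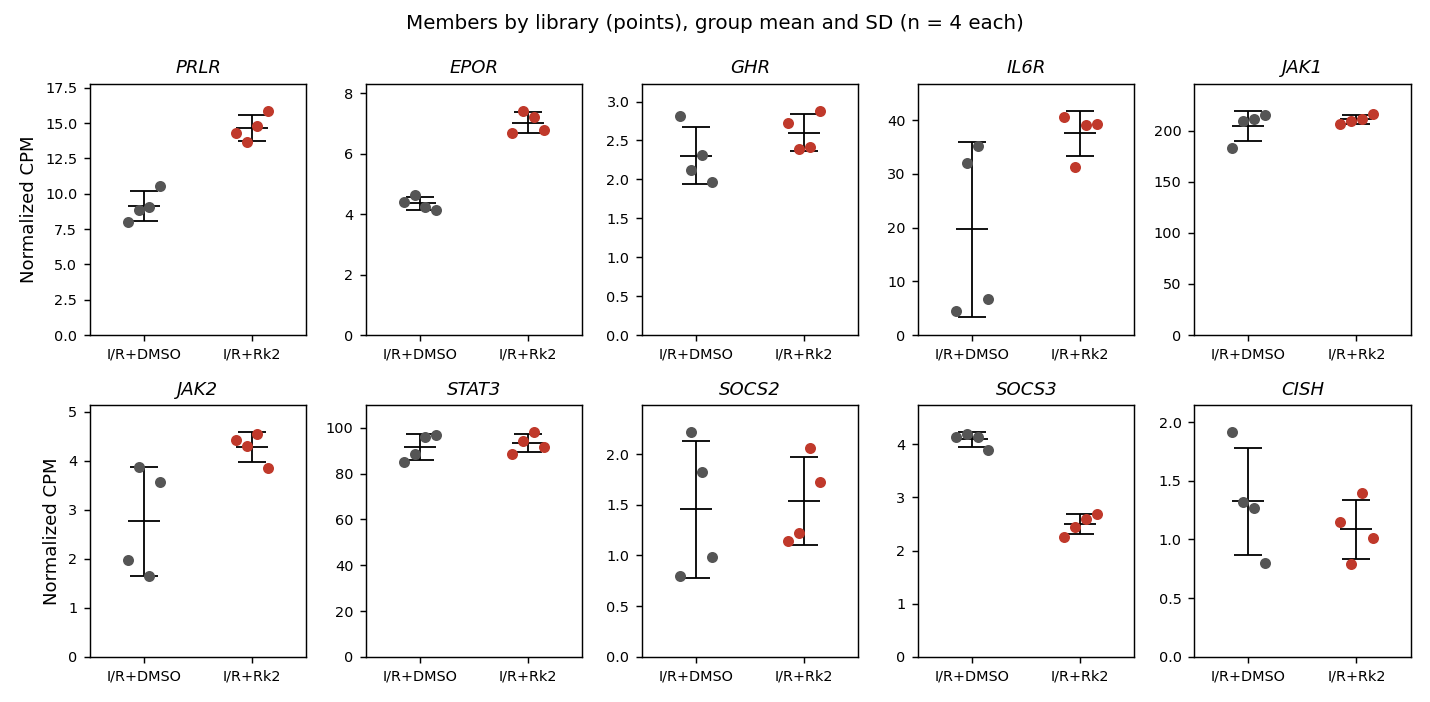
Normalized CPM (linear axis from 0, a scale of its own for each gene) of the 10 members in the 4 I/R+DMSO libraries (grey points) and the 4 I/R+Rk2 libraries (red points), with the mean and SD of each group as lines. PRLR and EPOR lie higher and SOCS3 lower in every I/R+Rk2 library, while IL6R splits the I/R+DMSO libraries into 2 at 4.46 and 6.80 CPM and 2 at 32.13 and 35.27 CPM.

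Library totals ran from 16374082 to 30310479 counts, and the deepest library, I/R+Rk2 replicate 1, held 1.85 times the counts of the shallowest. The hepatocyte genes ALB and AFP had at least 38063 and 95867 counts in every library and log2 fold changes of 0.01 and 0.00. Of the 8 hepatocyte markers, APOB rose by 0.61 on the log2 scale (adjusted p = 0.0124 in edgeR) and FGB was lower at -0.27 (adjusted p = 0.0462), while the others did not pass, with values from -0.22 for APOA1 to 0.39 for HNF4A. Of the marker genes of leukocytes, endothelium and stellate cells or fibroblasts, PTPRC, CDH5, VWF and DCN had no row in the count table, and CD3E, ACTA2 and COL1A1 reached at most 4, 2 and 17 counts. LYZ, with 9539 to 18222 counts, PECAM1 and COL1A2 were detected. The summed level of the 6 markers with a row, scaled to the library totals alone, was 632 to 699 CPM in I/R+DMSO and 612 to 714 CPM in I/R+Rk2. Most of this sum was LYZ, with mean normalized levels of 646 and 608 CPM, so it says little of the other markers.

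PRLR, which binds prolactin and signals through JAK2, lies at chr5:35048756-35230589 (minus strand; GENCODE v29 on GRCh38, used for all gene positions here). Its level was 8.02, 8.86, 9.04 and 10.56 CPM in I/R+DMSO replicates 1 to 4, and 14.29, 13.67, 14.83 and 15.89 CPM in I/R+Rk2. Every I/R+Rk2 library was above every I/R+DMSO library, on 151 to 436 counts per library. The mean rose from 9.12 ± 1.06 to 14.7 ± 0.939 CPM (SD, n = 4 each), which is 1.61-fold. This is a log2 fold change of 0.68 (standard error 0.0964, 95% interval 0.46 to 0.91, adjusted p = 0.00349 in edgeR). PRLR also has the longest messages of the set, and its fold change was the one that a correction for gene length lowered most among the genes that passed.

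EPOR, the receptor of erythropoietin and another partner of JAK2, lies at chr19:11377205-11384342 (minus strand). Its level was 4.41, 4.62, 4.24 and 4.13 CPM in I/R+DMSO and 6.68, 7.42, 7.20 and 6.78 CPM in I/R+Rk2. The libraries of each group lay close together and the groups were well apart. The mean rose from 4.35 ± 0.212 to 7.02 ± 0.348 CPM (SD, n = 4 each), again 1.61-fold. On the log2 scale the change of EPOR was 0.69 (standard error 0.0814, 95% interval 0.50 to 0.88, adjusted p = 0.00168 in edgeR), which placed it 178th of all genes by p. DESeq2 gave 0.68 with a larger standard error, 0.139 (adjusted p = 1.9e-05 in DESeq2). With 77 to 204 counts per library the interval from edgeR may be too narrow. Its hormone EPO had at most 6 counts in any library and was not tested.

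Reads shared with a neighbour could alter the count of EPOR, so its overlap was measured. In the annotation the exons of RGL3, the next gene on the same strand, overlapped those of EPOR by 2 bases, or 0.065% of EPOR's exonic bases, and no other gene overlapped its exons. RGL3, which encodes a regulator of Ral GTPases, had 2.66, 2.73, 1.76 and 1.36 CPM in I/R+DMSO and 2.98, 2.92, 2.84 and 2.73 CPM in I/R+Rk2. Its groups were just apart, with the highest I/R+DMSO and lowest I/R+Rk2 library both at 2.73 CPM after rounding, and its log2 fold change was 0.43 (adjusted p = 0.211 in edgeR). When the counts of EPOR and RGL3 were summed into 1 gene, the log2 fold change was 0.61 (adjusted p = 0.00741 in edgeR). How the authors' counting assigned reads between the pair was not given in the sources used here.

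GHR, the growth hormone receptor, at chr5:42423777-42721878 (plus strand), was expressed at a low level. It had 2.82, 2.12, 2.31 and 1.97 CPM in I/R+DMSO and 2.72, 2.39, 2.42 and 2.88 CPM in I/R+Rk2, on 40 to 83 counts per library. The groups overlapped, and the log2 fold change of GHR was 0.18 with a 95% interval of -0.16 to 0.52 (adjusted p = 0.434 in edgeR). Leaving out I/R+DMSO replicate 1 gave 0.29, and leaving out replicate 4 gave 0.11.

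IL6R, the chain that binds interleukin-6, at chr1:154405193-154469450 (plus strand), had the largest fold change of the members and the widest spread. Its level was 4.46, 32.13, 35.27 and 6.80 CPM in I/R+DMSO and 40.57, 31.32, 39.03 and 39.37 CPM in I/R+Rk2. I/R+DMSO replicates 1 and 4 were low, and replicates 2 and 3 lay within the range of I/R+Rk2. The means were 19.7 ± 16.3 and 37.6 ± 4.22 CPM (SD, n = 4 each). Its log2 fold change was 0.94, with a 95% interval of -0.48 to 2.35 that spans zero (adjusted p = 0.322 in edgeR). With a library left out it ran from 0.61, without I/R+DMSO replicate 1, to 1.37, without I/R+DMSO replicate 3. In FPKM, which scales the reads to transcript length and library size, the 2 low libraries stood less far apart, at 2.05 and 3.80 against 6.14 and 6.27 in the other I/R+DMSO libraries and 5.77 to 7.57 in I/R+Rk2.

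JAK2, the kinase used by the prolactin, erythropoietin and growth hormone receptors, lies at chr9:4984390-5128183 (plus strand). Its level was 1.97, 3.86, 1.65 and 3.57 CPM in I/R+DMSO and 4.42, 4.29, 4.54 and 3.85 CPM in I/R+Rk2. I/R+DMSO replicates 1 and 3 were low, and replicate 2 was level with the lowest I/R+Rk2 library, so the groups met. The means were 2.76 ± 1.11 and 4.28 ± 0.304 CPM (SD, n = 4 each), a ratio of 1.54. The log2 fold change of JAK2 was 0.62 (standard error 0.266, 95% interval 0.01 to 1.23, adjusted p = 0.138 in edgeR). JAK2 did not pass the threshold under any of the settings in which it was tested.

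JAK1, the kinase that works with gp130 and the interferon receptors, at chr1:64833229-64966504 (minus strand), was the most abundant member. It had 183, 210, 211 and 216 CPM in I/R+DMSO and 207, 209, 211 and 216 CPM in I/R+Rk2, and only I/R+DMSO replicate 1 stood apart, below the rest. The log2 fold change of JAK1 was 0.04 with a 95% interval of -0.08 to 0.17 (adjusted p = 0.631 in edgeR), and its sign turned after the gene length correction. STAT3, at chr17:42313324-42388568 (minus strand), had 84.95, 88.61, 96.16 and 96.70 CPM in I/R+DMSO and 88.67, 94.39, 98.04 and 91.79 CPM in I/R+Rk2. The groups of STAT3 overlapped almost fully, and its log2 fold change was 0.02 with a 95% interval of -0.10 to 0.15 (adjusted p = 0.793 in edgeR). The sign of this difference also turned with the length correction and with upper-quartile normalization.

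SOCS3, the feedback inhibitor that acts on gp130 receptors and their kinases, lies at chr17:78356778-78360077 (minus strand). Its level was 4.14, 4.19, 4.13 and 3.89 CPM in I/R+DMSO and 2.26, 2.44, 2.60 and 2.68 CPM in I/R+Rk2. The I/R+DMSO libraries lay close together and every I/R+Rk2 library was below them, on 43 to 89 counts per library. The mean fell from 4.09 ± 0.134 to 2.496 ± 0.186 CPM (SD, n = 4 each), to 0.609 of the I/R+DMSO level. On the log2 scale this was -0.71 (standard error 0.101, 95% interval -0.95 to -0.48, adjusted p = 0.00355 in edgeR). DESeq2 gave -0.72 with a larger standard error, 0.180 (adjusted p = 6.8e-04 in DESeq2). At so few counts the interval from edgeR may be too narrow.

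SOCS2, which damps growth hormone signalling, at chr12:93569814-93583487 (plus strand), had 0.80, 2.21, 1.82 and 0.99 CPM in I/R+DMSO and 1.15, 1.22, 2.06 and 1.72 CPM in I/R+Rk2. With 15 to 47 counts per library the groups overlapped widely, and the log2 fold change of SOCS2 was 0.06 with a 95% interval of -0.76 to 0.89 (adjusted p = 0.925 in edgeR). CISH, at chr3:50606490-50611831 (minus strand), had 1.91, 1.32, 1.27 and 0.80 CPM in I/R+DMSO and 1.15, 0.80, 1.39 and 1.01 CPM in I/R+Rk2. These are 15 to 36 counts per library, the groups overlapped, and the log2 fold change of CISH was -0.28 with a 95% interval of -0.95 to 0.39 (adjusted p = 0.536 in edgeR). Without I/R+DMSO replicate 1 the log2 fold change of CISH was -0.05, and without I/R+DMSO replicate 4 it was -0.46. On the opposite strand, exons of SOCS2-AS1 overlapped SOCS2 by 277 bases and exons of MAPKAPK3 overlapped CISH by 218 bases. MAPKAPK3 had 25.5 ± 0.789 and 28.4 ± 1.45 CPM (SD, n = 4 each), far above CISH, and without strand information reads of such a pair cannot be told apart.

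**Figure D2:**
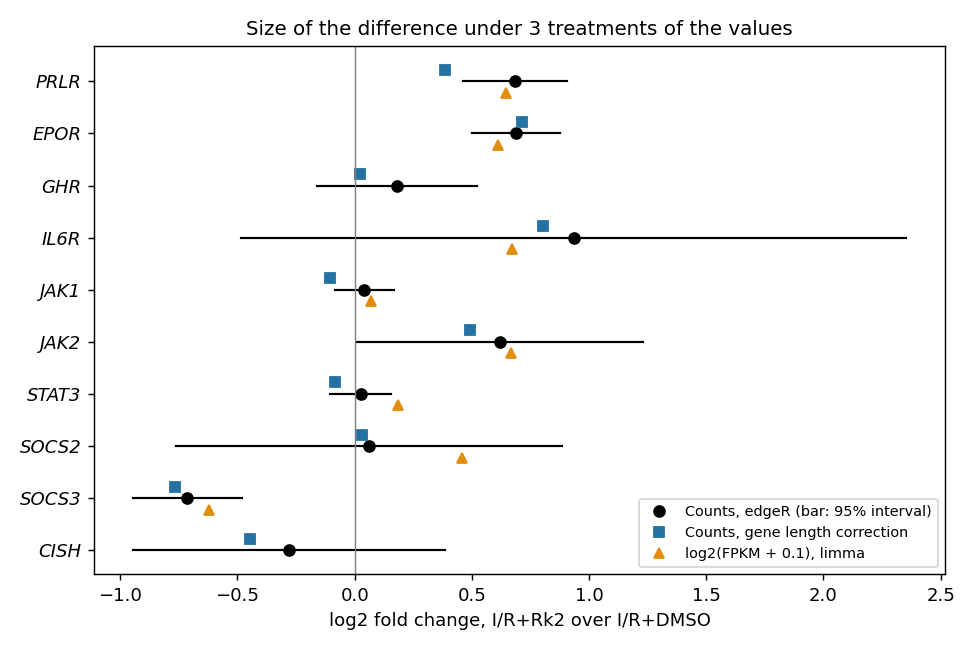
log2 fold change of I/R+Rk2 over I/R+DMSO for the 10 members from counts (black points, with 95% interval), from counts after the gene length correction (blue squares) and from log2(FPKM + 0.1) with limma (orange triangles, not drawn for GHR and CISH, whose mean FPKM was below 0.5). EPOR, PRLR and SOCS3 keep their direction in all 3, and PRLR moves from 0.68 to 0.39 with the length correction.

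Levels can be set beside each other only per length, in FPKM. In I/R+DMSO the mean FPKM was 35.1 for JAK1, 18.7 for STAT3, 4.56 for IL6R, 2.01 for EPOR and 1.23 for SOCS3. It was 0.652 for PRLR, 0.499 for JAK2, 0.433 for SOCS2, 0.391 for GHR and 0.313 for CISH. The libraries of IL6R and EPOR overlapped there, as did those of each neighbouring pair from PRLR down, and the pairs of neighbours from JAK1 to IL6R and from EPOR to PRLR did not. In I/R+Rk2 the mean was 36.8 for JAK1, 21.3 for STAT3, 6.74 for IL6R, 3.12 for EPOR and 1.08 for PRLR, and neighbours down to JAK2, at 0.789, did not overlap. SOCS3 followed at 0.766, SOCS2 at 0.602 and GHR at 0.455, each overlapping its neighbour, and CISH, at 0.190, lay below GHR in every library. SOCS3 thus stood above PRLR in every I/R+DMSO library and below it in every I/R+Rk2 library. The FPKM groups of EPOR and PRLR did not overlap and were higher in I/R+Rk2, those of SOCS3 were lower, and those of the other 7 members overlapped, as with counts.

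Long genes were higher in I/R+Rk2 across the whole table. A length for each gene was taken as CPM divided by FPKM, in kilobases, with CPM here scaled to the library total alone. The log2 fold change increased with this length over 12908 genes (Spearman's rho = 0.388), although genes do not count as separate replicates. The genes were split by length into 10 bins of 1290 or 1291. In the bin of the shortest genes (0.247 to 1.28 kb) the median log2 fold change was -0.17, and in the bin of the longest (6.64 to 121 kb) it was 0.21. The share of genes called higher was 1.24% in the former and 25% in the latter. PRLR, at 13.9 kb, belonged to the longest bin. JAK1 (5.78 kb), JAK2 (5.60 kb), GHR (5.77 kb), IL6R (5.34 kb) and CISH (5.84 kb) belonged to bin 9, from 5.05 to 6.64 kb, where the median was 0.12 and 20.7% were higher. STAT3, at 4.70 kb, was in bin 8, and SOCS2 (2.996 kb) and SOCS3 (3.28 kb) were in bin 6, with a median of 0.01. EPOR was short, at 2.25 kb, in bin 4, where the median was -0.05 and 5.19% were higher. The derived length exceeded the longest annotated transcript for PRLR, JAK1, JAK2, GHR, SOCS3 and CISH, but not for EPOR, IL6R, STAT3 or SOCS2. The protein-coding transcripts of CISH have 2043 and 2167 bases, so its place in bin 9 rests on the derived length alone.

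**Figure D3:**
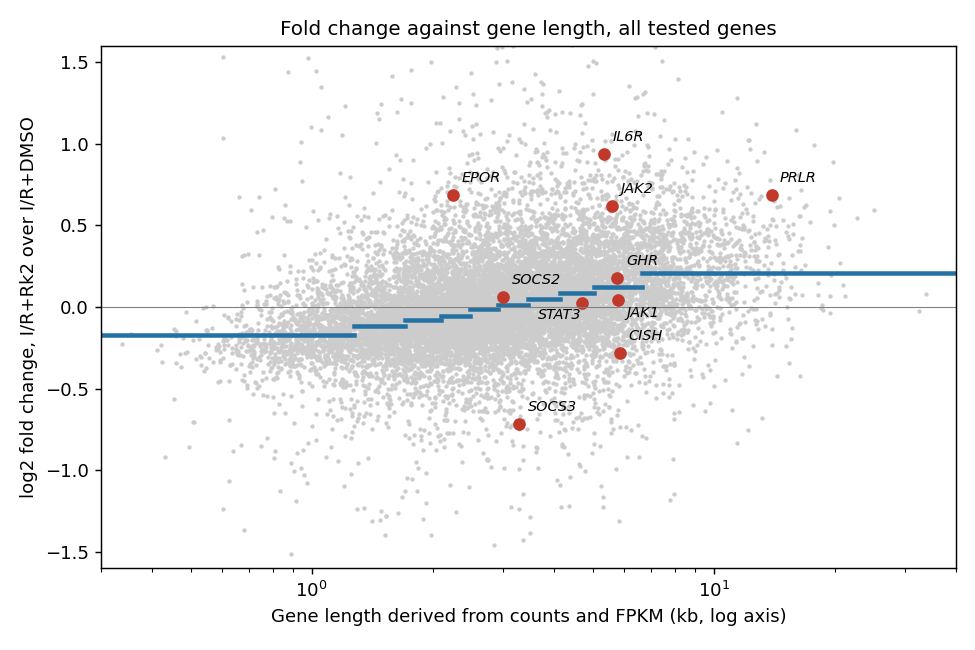
log2 fold change of I/R+Rk2 over I/R+DMSO (vertical) against gene length in kilobases (horizontal, log axis) for tested genes (grey, those beyond 1.6 in either direction or outside 0.3 to 40 kb not drawn), with the median of each of 10 bins of genes by length in blue and the 10 members in red. The medians climb from -0.17 to 0.21, PRLR stands above the median of the longest genes, and EPOR lies well above and SOCS3 well below the median of its own bin.

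With a length correction fitted in each library, the correlation with length fell to -0.01. The fit removes this trend by design, and the lengths come from the same counts, so that fall is not a separate result. The split of all calls moved from 1417 higher and 935 lower to 1028 higher and 1243 lower. The members' calls stayed 2 higher and 1 lower, the same 3 genes. The log2 fold change of PRLR was then 0.39 (adjusted p = 0.00392 in edgeR), down from 0.68. EPOR stood at 0.71 (adjusted p = 0.00119) and SOCS3 at -0.77 (adjusted p = 0.00245), both in edgeR. JAK2 was at 0.49 (adjusted p = 0.216), IL6R at 0.81 (adjusted p = 0.419) and GHR at 0.02 (adjusted p = 0.953), and JAK1 moved to -0.11 (adjusted p = 0.0514), all in edgeR. The part of length in the uncorrected differences beyond these values was not tested.

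The length that links the counts to the FPKM was not the same in every library for every member. It varied by 1.02 to 1.18 times between the highest and lowest library for SOCS3, GHR, JAK1, PRLR, EPOR and STAT3. For JAK2 it varied 1.39 times, for CISH 1.89 times and for SOCS2 3.02 times. For IL6R it was 2.12, 5.21, 5.54 and 1.78 kb in I/R+DMSO and 6.23, 5.48, 5.20 and 5.64 kb in I/R+Rk2, a range of 3.50 times. The I/R+DMSO libraries with the short values, replicates 1 and 4, were those with few IL6R counts. As CPM is the numerator of this length, that match is not a separate observation. Among 12754 genes with a value in all libraries, 11.2% varied more than 2 times and 3.53% more than 3 times. The annotated transcripts of IL6R run from 527 to 5914 bases, and those of CISH comprise spliced forms of 2043 and 2167 bases and a form of 5042 bases that keeps an intron. Whether different transcripts were read in different libraries was not tested.

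**Figure D4:**
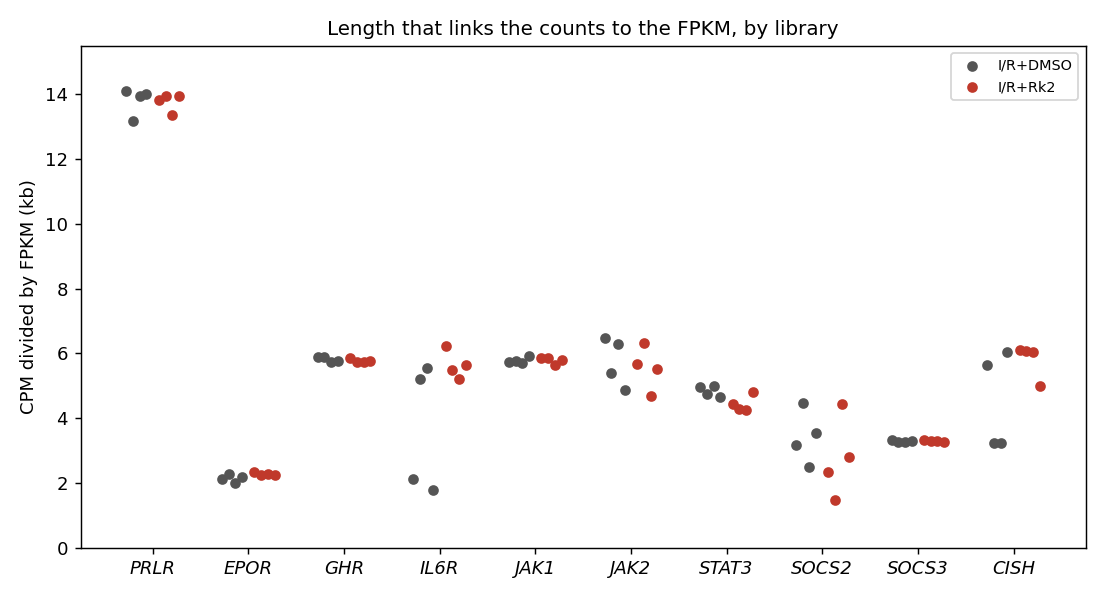
CPM, scaled to the library total alone, divided by FPKM, in kilobases (vertical, linear axis from 0), for the 10 members (horizontal) in each I/R+DMSO (grey) and I/R+Rk2 (red) library. PRLR, GHR, JAK1, EPOR and SOCS3 form tight clusters, while 2 I/R+DMSO libraries of IL6R fall to 2.12 and 1.78 kb beside 5.20 to 6.23 kb in the other 6.

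The rest of the pathway was described with 8 lists of 94 genes written with earlier results of these data known, of which 82 had a row and 73 were tested. Of the 73, 9 were higher, 8 were lower and 56 did not pass the test, with a median log2 fold change of -0.02. Of all genes tested, 11% were higher and 7.24% were lower. Counts here and below without a length correction are to be read against these shares. Among receptors that use gp130 or are built like it, 3 of 7 tested genes rose, with a median of 0.00. IL6ST, which encodes gp130 itself, rose from 79.4 ± 8.499 to 123 ± 5.74 CPM (SD, n = 4 each), and its log2 fold change was 0.63 (adjusted p = 0.00189 in edgeR). LIFR, the receptor of leukaemia inhibitory factor, rose by 0.50 on the log2 scale (adjusted p = 0.00533 in edgeR), and the leptin receptor LEPR by 0.49 (adjusted p = 0.0179 in edgeR). These are long genes, of 7.997, 7.87 and 6.93 kb, and after the length correction the log2 fold change was 0.43 for IL6ST (adjusted p = 0.00406), 0.30 for LIFR (adjusted p = 0.00972) and 0.31 for LEPR (adjusted p = 0.0652), so LEPR no longer passed. Of 13 other class I and II receptors 1 rose, the interferon receptor chain IFNAR1 by 0.17 on the log2 scale (adjusted p = 0.0328 in edgeR), and it was at 0.00 (adjusted p = 0.973) after the length correction and passed in 7 of 20 alternative settings.

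Of 4 further kinases and adaptors, the signal-transducing adaptor STAM2 rose by 0.39 on the log2 scale (adjusted p = 0.00758 in edgeR). It passed in 17 of 20 alternative settings. The 6 other STATs had adjusted p-values from 0.187 for STAT5A to 0.723 for STAT2 in edgeR, and log2 fold changes from -0.94 for STAT4 to 0.10 for STAT6. Among 15 other SOCS and PIAS proteins, phosphatases and brakes, 2 rose, and the median was 0.21 with 12 of the 15 above zero, beside 49.7% of all genes tested. SH2B3, an adaptor also called LNK that restrains JAK2 signalling, had 55.0, 64.2, 64.0 and 61.3 CPM in I/R+DMSO and 100.7, 100.2, 107.7 and 105.1 CPM in I/R+Rk2. Its groups were far apart, and its log2 fold change was 0.76 (adjusted p = 2.7e-04 in edgeR) and 0.59 (adjusted p = 3.9e-04) after the length correction. SOCS5 rose by 0.24 on the log2 scale (adjusted p = 0.0188 in edgeR), but was at 0.11 (adjusted p = 0.178) after that correction. It passed in 14 of 20 alternative settings. The median of this list was 0.05 after the correction, beside -0.02 for all genes tested. SOCS1, which like SOCS3 inhibits JAK kinases directly, was at -0.22 (adjusted p = 0.474 in edgeR).

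Of the ligands 4 of 13 could be tested, and the log2 fold change of LIF was -0.32 (adjusted p = 0.0462 in edgeR), a call that held in 6 of 20 alternative settings. IL6, OSM, PRL, GH1, GH2, LEP and TSLP had no row in the count table used here. Among the growth hormone and STAT5 targets, 1 of 6 rose and 2 fell. The list does not record whether growth hormone raises or lowers each target, so a rise and a fall need not mean opposite things. For the transcriptional repressor BCL6 the log2 fold change was 0.41 (adjusted p = 0.0113 in edgeR), for the survival gene BCL2L1 -0.29 (adjusted p = 0.00173) and for the cyclin CCND1 -0.21 (adjusted p = 0.0187). In this order they passed in 17, 17 and 15 of 20 alternative settings. IGF1 and IGFALS, the classical growth hormone targets of liver, reached at most 6 and 3 counts.

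The acute-phase targets of interleukin-6 and STAT3 had 5 of 18 genes lower, 1 higher and a median log2 fold change of -0.22. Of all genes tested 7.24% were called lower. In 8 of the 18 every I/R+Rk2 library was below every I/R+DMSO library, against 12.9% of all genes. CEBPD, a transcription factor of the acute-phase response, fell from 104.3, 100.05, 100.02 and 96.65 CPM to 74.2, 80.1, 77.6 and 72.4 CPM, and its log2 fold change was -0.40 (adjusted p = 0.00164 in edgeR). For FGA, a fibrinogen chain, the value was -0.34 (adjusted p = 0.00386 in edgeR), and for LRG1, a secreted glycoprotein, it was -0.49 (adjusted p = 0.00996 in edgeR). The other genes that fell were SAA1 and FGB, both named after their values were seen. SAA1 has a near-identical paralog, SAA2, and how reads were assigned between them is not known, so its count is uncertain. FGB passed in 5 of 20 alternative settings and was at -0.23 (adjusted p = 0.0677 in edgeR) after the length correction. FGG, another fibrinogen chain of the list, did not fall and was at 0.08 (adjusted p = 0.305 in edgeR). The protease inhibitor A2M rose by 0.33 on the log2 scale (adjusted p = 0.0127 in edgeR), and by 0.21 (adjusted p = 0.0292 in edgeR) after the length correction. Whether interleukin-6 raises A2M in these human cells was not tested. After the length correction 4 of the 18 were lower and 3 higher, with a median of -0.18. Of all 12910 genes tested, 1243 were lower and 1028 higher after that correction, with a median of -0.02. FGA and FGB are also general hepatocyte genes, and a set test was not run.

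**Figure D5:**
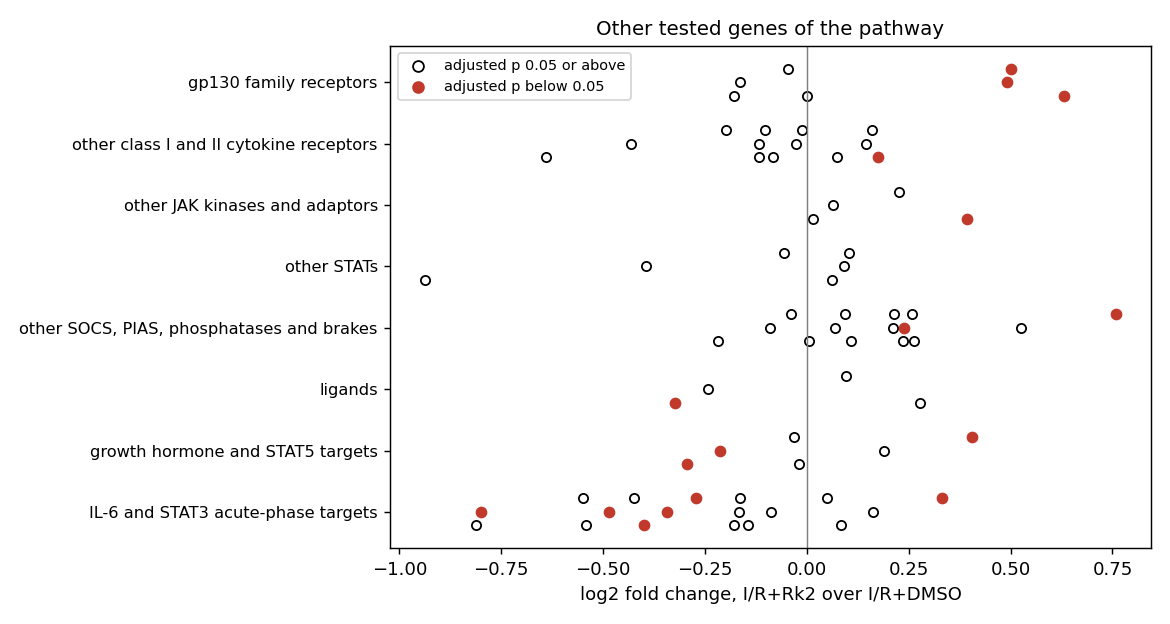
log2 fold change of I/R+Rk2 over I/R+DMSO (horizontal) for each tested gene of the 8 wider lists (rows; height within a row carries no value), filled red where the adjusted p from edgeR was below 0.05 and open otherwise. The 3 filled gp130 family receptors lie between 0.49 and 0.63, SH2B3 lies farthest right at 0.76, and the acute-phase row has 5 filled genes below zero and 1 above.

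As a description over the 8 libraries, which share the group difference and their depth, the genes whose log2 CPM followed a member most closely were found by Pearson's r. For EPOR they were SLC17A9 and NEU1 (both r = 0.997) and RABEP1 (r = 0.994). For JAK2 they were TMEM87B (r = 0.971), MKI67 (r = 0.969) and KLHL23 (r = 0.967), and for SOCS2 they were IGF2BP3 and PLCG1 (both r = 0.947) and KSR1 (r = 0.922). These values were the highest among 12910 genes and carry no test.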

How the data were processed

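Libraries were made from 250 ng of total RNA with an MGIEasy kit, and the submitters' processing notes name FastQC 0.11.5, HISAT2 2.2.1, StringTie 1.3.3 and hg38. The counting tool, annotation and strand setting are not given in the sources used here. Raw counts of 15767 genes, not normalized, and FPKM values of 19799, scaled to gene length and library size, were deposited by the authors. In these, 22 and 27 symbols had been turned into dates; the former, 0.111% of the counts, were left out.

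The 12910 genes that reached 10 counts in 4 or more libraries were tested with edgeR 4.0.16 (R 4.3.3), by a robust quasi-likelihood fit of condition alone on TMM-normalized counts, with Benjamini-Hochberg adjustment over all of them. These genes held 99.8% of all counts. The coefficient of biological variation was 17.1%. Alternatives were DESeq2 1.42.0, limma 3.58.1 on FPKM (pseudocount 1 or 0.1, mean FPKM at least 0.5 or no filter) or with voom weights, other normalizations and count filters, a replicate block, a gene length correction (loess per library, span 0.5) and leaving out each library. The fits were first tested on simulated counts with 200 altered genes.

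Members, lists and tests were chosen with earlier results of these data known. All members are named. Of each wider list up to 3 genes per direction with the smallest p among those past the threshold are named, for JAK2, SOCS2 and EPOR the 3 genes with the highest r, and every gene whose exons overlap those of EPOR on the same strand. Other genes are list members or were picked once their values were known. Cell type markers were a fixed list, of which 1 gene is not reported here. Symbols were matched to GENCODE v29 and to RefSeq promoter windows.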

Additional observations from a re-analysis of the deposited data

Results flagged for a closer look

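In 40 sets of 4 libraries (the CPM and the FPKM of each member in each group), 2 had a library far from the other 3, measured as its gap to the nearest library over the whole range of the group. The rule is meant to flag about 1 in 20 groups by chance when groups are independent. The CPM and the FPKM of a member come from the same libraries, so the 40 sets are not independent. The count of 2 in 40 therefore cannot show whether chance accounts for these flags. For the FPKM of JAK1 in I/R+DMSO the ratio was 0.951, with replicate 1 low at 31.30 in a range of 31.3 to 36.5. For the CPM of IL6R in I/R+Rk2 it was 0.834, with replicate 2 low at 31.32 in a range of 31.3 to 40.6. No cause was tested for either. The wider split of IL6R within I/R+DMSO, with 2 libraries low and 2 high, is of a kind that this measure does not detect.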

How the results depend on the processing

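PRLR passed the threshold in 20 of 20 alternative settings (log2 fold change 0.33 to 0.76), EPOR in 21 of 21 (0.45 to 0.72) and SOCS3 in 19 of 19 (-0.77 to -0.34), the values nearest zero coming from limma on log2(FPKM + 1). The added 1 shrinks differences at low FPKM. With 0.1 added instead, limma gave 0.65 for PRLR, 0.61 for EPOR, -0.62 for SOCS3 and 0.67 for JAK2. JAK2 passed in 0 of 19 (0.27 to 0.83) in edgeR, DESeq2 and limma, with adjusted p from 0.0783 to 0.262, and IL6R, GHR, JAK1, STAT3, SOCS2 and CISH passed in none of theirs. With each library left out in turn, members higher numbered 2 to 2 and members lower 1 to 1. At least 50 counts in every library left 5 members tested and 0 lower, since SOCS3 was not among them. JAK2, GHR, SOCS2 and CISH were not tested there either, nor GHR and CISH in limma with the FPKM filter. The sign turned for JAK1 with the length correction (-0.11, also with the replicate block), and its values with a library left out ran from -0.0085, without I/R+DMSO replicate 1, to 0.067. The log2 fold change of STAT3 turned with upper-quartile normalization (-0.0029) and the length correction (-0.084, also with the replicate block), and ran from -0.0097, without I/R+DMSO replicate 1, to 0.052 with a library left out, also turning without I/R+Rk2 replicate 3. For SOCS2 it turned with voom weights (-0.15), and leaving out a library gave -0.14, without I/R+DMSO replicate 1, to 0.35, turning also without replicate 4 of either group and without I/R+Rk2 replicate 3. The cause was not tested. The other 179 values of members kept direction and side.

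Of the wider genes 9 were higher and 8 lower, against 5 and 4 in each of the 3 limma fits on FPKM. Leaving out a library gave 6 to 10 higher and 5 to 8 lower, with 5 lower without I/R+Rk2 replicate 3 or 4. Calls over all genes ranged from 863 to 1418 higher and 430 to 885 lower, the lowest without I/R+Rk2 replicate 4, and limma on FPKM gave 707 to 813 higher and 264 to 311 lower. The values showed no pairing of libraries by replicate number, which cannot settle whether they were paired. Deviations of same-numbered libraries correlated at 0.016, -0.0095, 0.0382 and 0.0845, and 1 of 4 libraries correlated best with its own number. With the replicate block, 2 members were higher and 1 lower, and the log2 fold change was 0.69 for PRLR (adjusted p = 0.0127), 0.69 for EPOR (adjusted p = 0.0160) and -0.72 for SOCS3 (adjusted p = 0.0268), all in edgeR. SOCS2 and CISH rest on 15 to 47 counts per library.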
